A study of Mus musculus with 18 samples.

Results

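In a mouse fibroblast line lacking p65, most of the larger changes in gene expression seen in wild-type cells after 45 min of tumour necrosis factor (TNF) were smaller. The quantity described is the difference between the TNF responses of 2 lines at 45 min: the log2 change of a gene in p65 knock-out cells (TNF minus untreated) minus the log2 change of the same gene in wild-type cells. It was computed from the 8 libraries of 4 groups, out of 18 libraries in 9 groups, and for 16322 genes. A negative value means that the change with TNF was lower in the p65 KO line, and a positive value that it was higher. The 4 groups, with 2 libraries each, were p65 KO cells given TNF at 10 ng/ml for 45 min, untreated p65 KO cells, wild-type (WT) cells given the same dose for 45 min, and untreated WT cells. All were immortalised mouse embryonic fibroblasts, a connective-tissue cell type, grown in DMEM with 10% serum. The labels give 1 line per genotype and name neither the allele, the way of immortalisation nor whether a line is a clone, so the loss of p65 and any other difference between the lines cannot be told apart. Another line, lacking the kinase IKK2 (45 min TNF and untreated), and samples of the p65 KO and WT lines taken at 90 min are used below for comparison alone, again with 2 libraries each.

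p65, the product of Rela, is a subunit of the transcription factor NF-κB. In resting cells NF-κB is held in the cytoplasm by IκB proteins. TNF binds its receptor and activates the IκB kinase complex, in which IKK2 is the main catalytic subunit for this route. IκB is then degraded, NF-κB enters the nucleus, and dimers that contain p65 switch on inflammatory genes together with the genes of their own inhibitors. TNF also activates the MAP kinases JNK, p38 and ERK, which act on immediate-early genes without needing new protein.

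Library totals ranged from 16708346 to 23469439 counts in the 4 groups. Levels are given as CPM, counts scaled to an equal library total with TMM factors, for library a and then library b of a group. Rela itself was at 5.33 and 5.80 CPM in TNF-treated p65 KO cells and 5.25 and 6.11 CPM in untreated p65 KO cells, against 95.7 and 92.3 CPM in TNF-treated WT cells and 63.2 and 64.4 CPM in untreated WT cells. The labels do not say which exons were deleted, so the remaining Rela counts show a lower level but not which part of the transcript is left. All 15 fibroblast markers were tested, 2 of them with 0 counts in a group, and 0 were called different in response. Their summed level was 5651 and 5654 CPM in TNF-treated p65 KO cells and 5610 and 5598 CPM in untreated p65 KO cells, against 12236 and 11923 CPM in TNF-treated WT cells and 12103 and 12151 CPM in untreated WT cells. Over these 8 libraries epithelial markers summed to 0.0821 to 0.548 CPM, endothelial markers to 0.374 to 1.93 CPM and myeloid markers to 7.68 to 12.1 CPM. Of these lists 2 of 11, 3 of 10 and 3 of 10 genes were tested. Their defining genes Epcam, Pecam1 and Ptprc were too low to be tested. The untreated lines differed widely: 13196 of 16322 genes (80.8%) were called between untreated p65 KO and untreated WT cells. Untreated levels, or the log2 difference between the untreated lines (p65 KO minus WT), are therefore given for the genes described in most detail.

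The difference of responses was called for 1156 of 16322 genes (7.08%, edgeR quasi-likelihood test, Benjamini-Hochberg adjusted p under 0.05). It was lower in p65 KO for 589 genes (3.61%) and higher in p65 KO for 567 genes (3.47%). DESeq2 on the same counts called 667 genes, 321 lower and 346 higher. A difference of at least 2-fold was reached by 146 of the lower and 53 of the higher genes. In the p65 KO line the TNF response itself was called for 271 genes (1.66%), with 191 rises and 80 falls, against 1988 genes (12.2%) in WT, with 935 rises and 1053 falls. Only 11 genes rose and 1 fell by at least 1.5-fold in p65 KO cells, against 180 and 132 in WT cells, among genes of at least 2 CPM with a plain symbol. The labels do not say that the libraries of a group came from separate cultures, so p-values measure the spread between these libraries, which may be technical.

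Of the 1156 called genes, 943 had a called TNF response in WT, against 1988 of all 16322 genes tested. In 136 of the 1156, neither line had a called response. Of the 589 lower genes, 585 had a WT estimate above 0, and in 419 of them the p65 KO estimate was at or below 0. Of the 567 higher genes, 558 had a WT estimate below 0, and in 431 of them the p65 KO estimate was at or above 0. Over the 180 genes that TNF raised in WT by at least 1.5-fold, the median response was 0.03 in p65 KO and 1.03 in WT on the log2 scale. For 140 of the 180 the difference was called lower and for 0 higher. Over the 132 genes that TNF lowered in WT, the median response was 0.00 in p65 KO and -0.83 in WT, and for 95 the difference was called higher. The lower and higher genes were chosen on the difference, which contains the WT response, so a WT estimate of the opposite sign is favoured by the choice. Both pools were chosen on the WT libraries, which also enter the difference. All these counts are therefore descriptions.

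**Figure D1:**
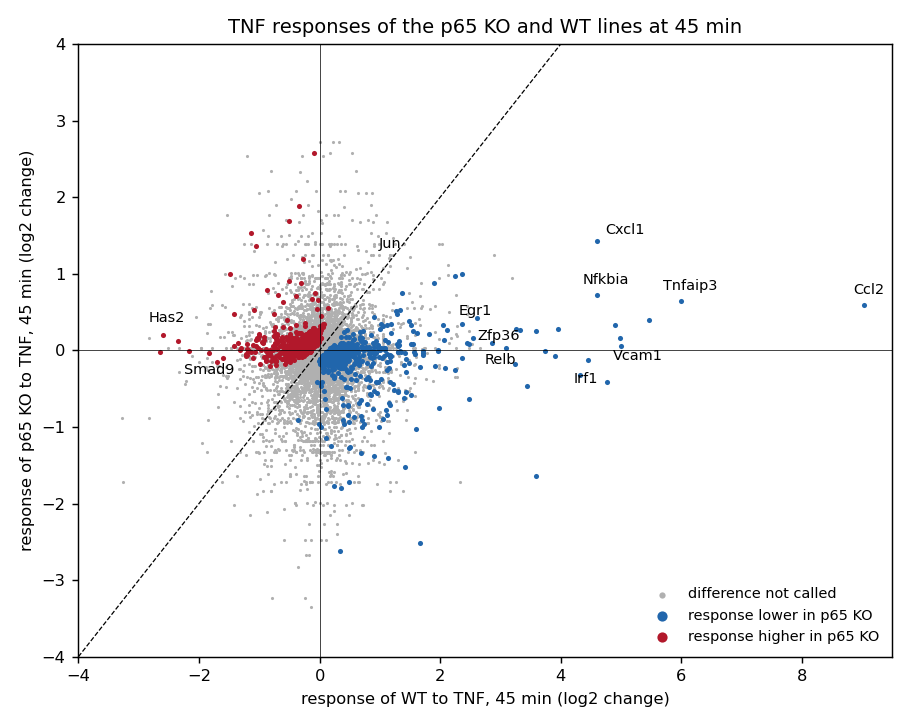
Each point is 1 gene with counts in all 4 groups, with its response to TNF in p65 KO cells on the vertical axis and in WT cells on the horizontal axis, both as log2 change at 45 min. The dashed line marks equal responses. Most called genes lie close to the horizontal line at 0. Among the genes labelled, WT responses run from -2.60 for Has2 to 9.03 for Ccl2, while Jun lies on the dashed line. The axes leave out 1 gene.

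Promoter sequences are shown for 6 of the 15 genes with the largest lower differences, 5 with a κB match and Traf1 without one, together with 2 genes that behaved otherwise. Of the 15, 11 had a window and 7 of these held a match; Nod2, Ankrd33b, Traf1 and Clec2d held none. The genes printed were chosen after their matches were seen. Tnfaip3 and Irf1 have 2 RefSeq windows each, of which the one with a match is shown and the other held 0. The first 6 below rose in WT by far more than in p65 KO cells. Jun kept its fold response, and Snai1 fell in WT but was not called in p65 KO. Each line gives the 160 bases before the RefSeq start of transcription (GRCm38.p6), 5′ to 3′, with matches to the κB consensus on either strand in capitals.
Nfkbia (chr12:55492648-55492807, minus strand): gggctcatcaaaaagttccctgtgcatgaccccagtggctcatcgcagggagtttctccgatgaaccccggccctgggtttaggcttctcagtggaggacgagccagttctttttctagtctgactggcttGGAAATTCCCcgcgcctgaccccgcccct
Tnfaip3 (chr10:19015411-19015570, minus strand): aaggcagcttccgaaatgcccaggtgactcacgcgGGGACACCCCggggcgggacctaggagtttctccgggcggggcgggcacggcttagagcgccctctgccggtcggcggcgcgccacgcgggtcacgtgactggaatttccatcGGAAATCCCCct
Nfkbie (chr17:45555540-45555699, plus strand): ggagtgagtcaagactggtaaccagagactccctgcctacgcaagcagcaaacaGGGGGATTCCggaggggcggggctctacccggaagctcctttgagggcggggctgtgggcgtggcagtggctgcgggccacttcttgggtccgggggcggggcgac
Irf1 (chr11:53769854-53770013, plus strand): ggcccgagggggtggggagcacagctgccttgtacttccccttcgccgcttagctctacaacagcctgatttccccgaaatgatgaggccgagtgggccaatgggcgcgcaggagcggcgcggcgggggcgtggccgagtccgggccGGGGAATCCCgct
Cxcl10 (chr5:92348890-92349049, minus strand): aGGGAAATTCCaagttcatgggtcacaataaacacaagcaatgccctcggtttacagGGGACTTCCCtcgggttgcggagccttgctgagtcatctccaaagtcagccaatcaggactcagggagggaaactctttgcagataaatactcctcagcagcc
Traf1 (chr2:34961773-34961932, minus strand): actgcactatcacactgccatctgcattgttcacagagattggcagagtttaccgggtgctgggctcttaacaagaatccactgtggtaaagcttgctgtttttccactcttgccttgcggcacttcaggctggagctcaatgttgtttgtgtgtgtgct
Jun (chr4:95052223-95052382, minus strand): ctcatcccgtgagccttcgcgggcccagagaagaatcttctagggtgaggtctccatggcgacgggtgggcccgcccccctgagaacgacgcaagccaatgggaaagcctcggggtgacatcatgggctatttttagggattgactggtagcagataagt
Snai1 (chr2:167538035-167538194, plus strand): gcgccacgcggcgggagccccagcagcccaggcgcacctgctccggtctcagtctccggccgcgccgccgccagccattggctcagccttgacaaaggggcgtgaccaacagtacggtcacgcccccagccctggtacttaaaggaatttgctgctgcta
Traf1, Jun and Snai1 hold no match in these windows. A match is a description of the letters and not a measured binding site.

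Matches were also counted over all 300 bases of a window (250 before and 50 after the start), and a gene counted if any of its windows held one. By this rule 624 of the 10159 tested genes with a window held a κB match (6.14%). Among genes with a response lower in p65 KO it was 55 of 412 (13.3%), and among those lower by at least 2-fold it was 19 of 75 (25.3%). Among genes with a response higher in p65 KO it was 28 of 429 (6.53%). The AP-1 letters TGANTCA stood in 6.27% of the tested genes, in 7.52% of the lower, in 18.7% of the lower by at least 2-fold and in 8.86% of the higher. Of all 32851 windows in the RefSeq table, 4.51% held the κB consensus and 7.81% TGANTCA. No test was made of these shares.

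Several inhibitors of NF-κB were induced far less in p65 KO than in WT cells. Of 19 tested genes of this list 9 were lower in p65 KO, 1 was higher (Rnf11, 0.21) and 9 were not called, with a median difference of -0.61, against -0.01 over all genes. Nfkbia (chr12:55489410-55492647), which encodes IκBα, was at 55.5 and 54.2 CPM in TNF-treated p65 KO cells and 33.5 and 33.1 CPM in untreated p65 KO cells, against 377 and 368 CPM in TNF-treated WT cells and 15.6 and 15.1 CPM in untreated WT cells. The untreated p65 KO libraries thus lay above the untreated WT libraries, and the treated ones far below. The fold change with TNF was 1.65 in p65 KO and 24.2 in WT, a difference of -3.88 ± 0.07 on the log2 scale (SE; adjusted p = 7.1e-36). The p65 KO response, 0.72 ± 0.05, was itself called (adjusted p = 6.4e-15).

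Tnfaip3 encodes A20, an enzyme that edits ubiquitin chains and shuts off the TNF receptor signal. It was at 18.7 and 19.0 CPM in TNF-treated p65 KO cells and 12.3 and 11.7 CPM in untreated p65 KO cells, against 552 and 563 CPM in TNF-treated WT cells and 8.98 and 8.54 CPM in untreated WT cells. The gain was 6.8 CPM in p65 KO and 549 CPM in WT. The difference was -5.34 ± 0.11 (adjusted p = 1.9e-34), and the p65 KO rise of 0.65 was called. Nfkbia and Tnfaip3 were the 2 of the 15 genes with the largest lower differences whose p65 KO response was called.

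Nfkbie, which encodes IκBε, had 4.33 and 4.47 CPM in TNF-treated p65 KO cells and 4.57 and 4.69 CPM in untreated p65 KO cells, against 22.1 and 22.1 CPM in TNF-treated WT cells and 1.52 and 1.44 CPM in untreated WT cells. The p65 KO libraries did not separate by treatment in the fit (-0.07 ± 0.15), and the difference was -3.97 ± 0.23 (adjusted p = 6.1e-18). Bcl3, an IκB-like coactivator, stood at 5.08 and 5.48 CPM with TNF and 4.98 and 5.65 CPM untreated in p65 KO, against 7.78 and 7.45 CPM with TNF and 0.71 and 0.451 CPM untreated in WT. Its untreated p65 KO level was close to the treated WT level, and its difference was -3.74 ± 0.25. Tnip1, which encodes a partner of A20, differed by -1.38 and Nfkbiz, which encodes another IκB-like protein, by -1.39, with untreated lines apart by 0.52 and -0.92.

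All 4 other NF-κB subunit genes were lower in response, and 0 of their p65 KO responses were called. Relb was at 15.2 and 14.3 CPM in TNF-treated and 14.2 and 13.3 CPM in untreated p65 KO cells, against 49.4 and 48.3 CPM in TNF-treated and 7.25 and 6.36 CPM in untreated WT cells, a difference of -2.76 ± 0.11 (adjusted p = 7.1e-23). Rel, with untreated levels of 24.7 and 25.3 CPM in p65 KO and 25.5 and 25.9 CPM in WT, was not called between the untreated lines (-0.04, adjusted p = 0.56). It reached 27.0 and 26.0 CPM in p65 KO and 70.5 and 76.7 CPM in WT, a difference of -1.43 ± 0.08. Nfkb2 and Nfkb1, which encode the p100 and p105 precursors, differed by -1.23 ± 0.05 and -0.77 ± 0.04, with untreated lines apart by 0.97 and -0.21. Rela's own difference was -0.59 ± 0.13 (adjusted p = 0.0013), and this call was lost without library b of untreated p65 KO cells (adjusted p = 0.095).

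Of 27 genes of the TNF receptor complex and IKK, 6 were lower and 0 higher, with a median of -0.10. Traf1, an adaptor induced by NF-κB, was at 6.48 and 6.77 CPM with TNF and 5.16 and 5.77 CPM untreated in p65 KO, against 11 and 9.32 CPM with TNF and 0.659 and 0.657 CPM untreated in WT (difference -3.67 ± 0.24). Map3k8, the kinase that links NF-κB to ERK, differed by -3.06, Tank by -1.26 and Birc2, a ubiquitin ligase of the receptor complex, by -1.08. Their untreated lines were apart by -0.37 for Map3k8, -0.04 for Tank and -0.36 for Birc2, called for Birc2 alone. The receptor gene Tnfrsf1a was at 59.8 and 63.2 CPM with TNF and 60.0 and 62.8 CPM untreated in p65 KO, against 45.5 and 45.8 CPM with TNF and 45.0 and 46.6 CPM untreated in WT (difference 0.01 ± 0.07, adjusted p = 0.98). Among the survival genes, 4 of 14 were lower and 1 higher (Bcl2l1, 0.36), with a median of -0.21. Birc3, a relative of Birc2, stood at 0.249 and 0.242 CPM with TNF and 0.274 and 0.166 CPM untreated in p65 KO, against 11.8 and 13.7 CPM with TNF and 2.28 and 2.05 CPM untreated in WT, and differed by -2.38 ± 0.67 (adjusted p = 0.017). That call was lost without library a of untreated p65 KO cells or library b of treated p65 KO cells (adjusted p up to 0.27).

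**Figure D2:**
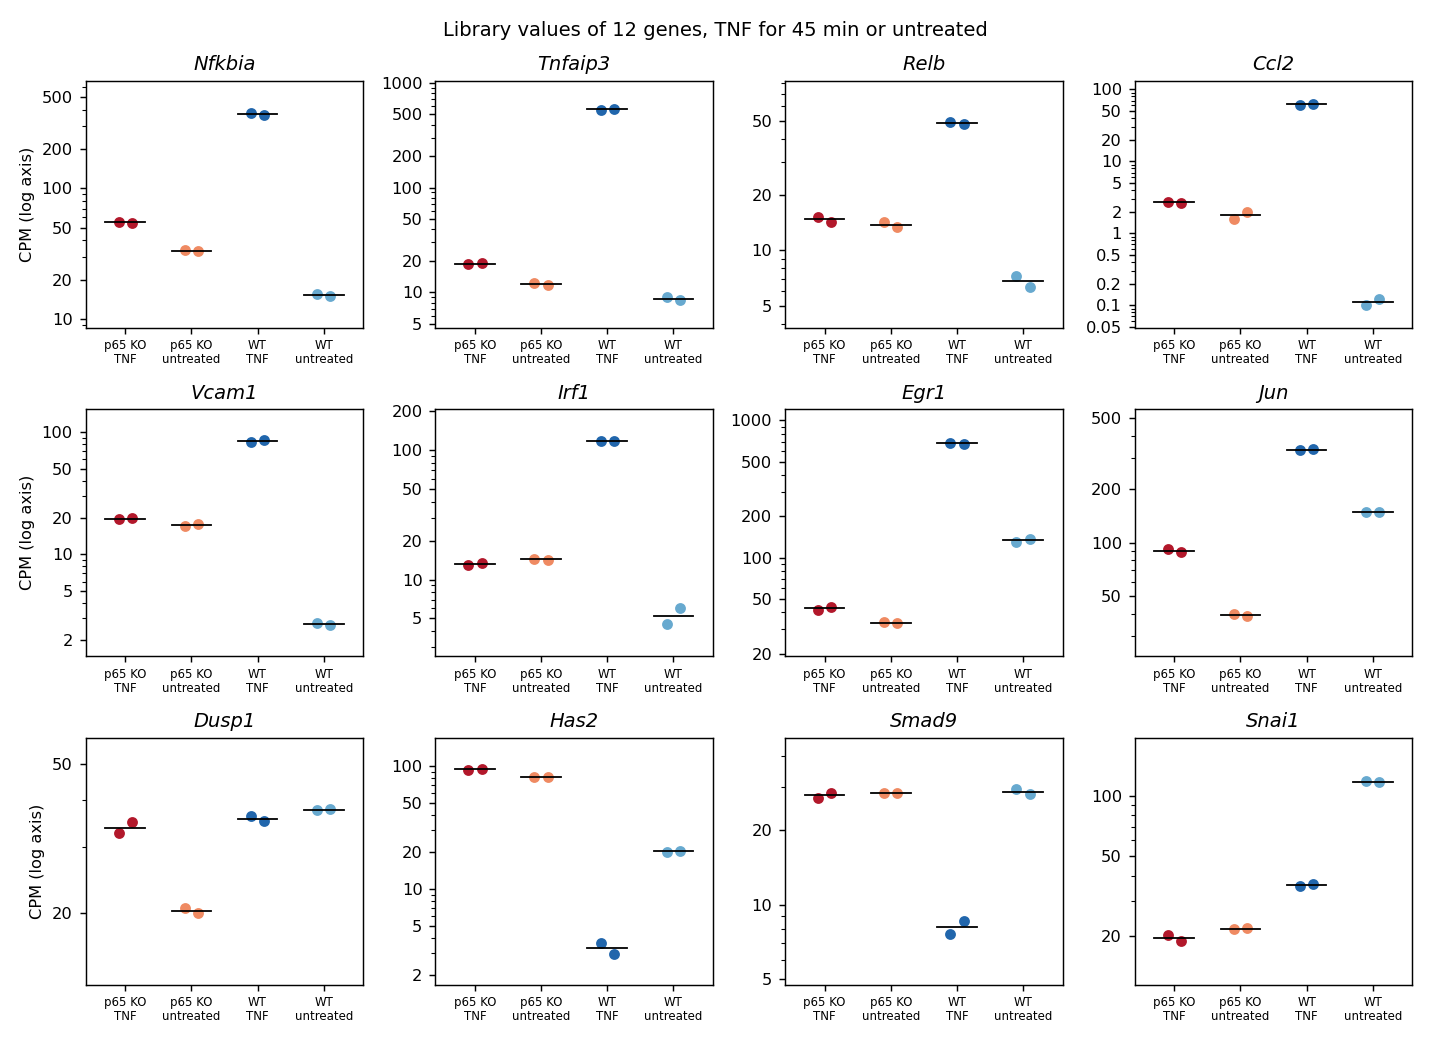
CPM on a log axis in each library of 12 genes, with TNF-treated and untreated p65 KO cells on the left of each panel and TNF-treated and untreated WT cells on the right; bars are means of 2 libraries. Nfkbia, Tnfaip3, Relb, Ccl2, Vcam1 and Irf1 are high in treated WT cells, while Has2, Smad9 and Snai1 are lower in treated than in untreated WT cells, and Jun moves alike in both lines.

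Of 13 chemokines measured, 5 were lower and 0 higher, with a median of -3.18, or -0.53 without the 4 that had 0 counts in a group. On the linear scale, the gain in CPM was lower in p65 KO for 7 and higher for 4, without overlap of libraries. Over all 16322 genes it was lower for 3011 and higher for 2875. In untreated p65 KO cells 8 of the 13 were called higher than in WT and 3 lower. Ccl2 (chr11:82035571-82037453), which attracts monocytes, was at 2.74 and 2.66 CPM in TNF-treated p65 KO cells and 1.6 and 1.95 CPM in untreated p65 KO cells, against 61.7 and 63.2 CPM in TNF-treated WT cells and 0.101 and 0.123 CPM in untreated WT cells. This was the largest difference by the naming rule, -8.43 ± 0.36 (adjusted p = 3.8e-22). Untreated WT cells held 5 Ccl2 counts over both libraries, so the size is less certain than the order of the groups. Ccl7, a neighbour with a like function, had 0 counts in untreated WT cells and 2.72 and 2.74 CPM with TNF, at least 40.1-fold higher (3 counts over the group as the floor). In p65 KO it was at 1.44 and 0.604 CPM with TNF and 0.548 and 0.332 CPM untreated.

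Cxcl10, an attractant of T cells, had 2.09 and 2.66 CPM with TNF and 2.15 and 1.54 CPM untreated in p65 KO, against 6.69 and 5.82 CPM with TNF and 0.0507 and 0.205 CPM untreated in WT (difference -5.07 ± 0.44, adjusted p = 3.2e-12). Cxcl1, an attractant of neutrophils, went the other way on the linear scale. It was at 21.3 and 20.7 CPM with TNF and 8.81 and 6.81 CPM untreated in p65 KO, against 0.594 and 0.815 CPM with TNF and 0.0507 and 0 CPM untreated in WT. The gain was thus 13.2 CPM in p65 KO and 0.679 CPM in WT, while the log2 difference was -3.18 ± 0.96 (adjusted p = 0.031). Its WT ratio of 27.8 had a 95% counting interval of 5.04 to 1258, since 1 count stood behind the untreated WT level. Leaving out library b of untreated WT, library b of treated WT, or using DESeq2 ended the call (adjusted p up to 0.33), and without library a of untreated WT the Cxcl1 difference was -5.41.

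Among adhesion and pattern-recognition genes 6 of 17 were lower and 1 higher, with a median of -0.44. Vcam1, a receptor for leukocytes, was at 19.3 and 19.7 CPM with TNF and 17 and 17.8 CPM untreated in p65 KO, against 83.7 and 85.7 CPM with TNF and 2.74 and 2.63 CPM untreated in WT (difference -4.81 ± 0.12, adjusted p = 1.4e-31). Tlr2, a receptor for bacterial lipopeptides, was at 5.83 and 4.99 CPM with TNF and 6.21 and 5.94 CPM untreated in p65 KO, against 36.1 and 38.2 CPM with TNF and 3.6 and 4.19 CPM untreated in WT (difference -3.41 ± 0.17). Icam1, another leukocyte receptor, had 0 counts in all 4 p65 KO libraries and in untreated WT, and 1.29 and 1.51 CPM in TNF-treated WT. The size of its difference could therefore not be estimated. Ptgs2, which encodes cyclooxygenase 2, was the exception: it was at 834 and 833 CPM with TNF and 565 and 578 CPM untreated in p65 KO, against 1492 and 1514 CPM with TNF and 1547 and 1552 CPM untreated in WT. It rose in p65 KO by 0.54 and was not called in WT at -0.04 (difference 0.59 ± 0.03, adjusted p = 9.7e-18).

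Cytokines and growth factors divided into 5 lower and 6 higher genes of 19, with a median of 0.02. Csf1, the growth factor of macrophages, had 154 and 160 CPM with TNF and 162 and 158 CPM untreated in p65 KO, against 718 and 701 CPM with TNF and 371 and 370 CPM untreated in WT (difference -0.97 ± 0.04). Lif, a cytokine of the interleukin 6 family, rose in both lines, by 0.99 in p65 KO and 2.36 in WT (difference -1.37 ± 0.14). Pdgfb was already at 5.93 and 6.94 CPM in untreated p65 KO cells, above the 1.88 and 1.98 CPM of TNF-treated WT cells. The higher members were Il11 (1.46), Fgf2 (1.16), Vegfa (1.10), Areg (1.10), Hbegf (0.72) and Inhba (0.37). Il11 fell to 4.26 and 4.19 CPM in TNF-treated WT cells, against 9.28 and 12.1 CPM untreated, and had 1.20 to 1.69 CPM in the p65 KO libraries. Its call was lost without library b of treated p65 KO cells (adjusted p = 0.17).

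Of 29 interferon regulatory factors and interferon-induced genes, 8 were lower and 0 higher, with a median of -0.41. Irf1, a transcription factor of the interferon response, was at 12.9 and 13.4 CPM with TNF and 14.5 and 14.2 CPM untreated in p65 KO, against 117 and 117 CPM with TNF and 4.51 and 5.99 CPM untreated in WT (difference -4.58 ± 0.11, adjusted p = 4.9e-31). H2-K1, a class I antigen-presenting molecule, differed by -1.16 and Irf5 by -1.06. For Irf5 the untreated p65 KO libraries, at 13.0 and 11.7 CPM, lay above the TNF-treated WT libraries, at 9.36 and 6.46 CPM. In 210 of the 589 lower genes the mean of untreated p65 KO cells was at or above that of TNF-treated WT cells. The share with this order over all genes was not counted, so it is not known whether 210 is many.

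The remaining genes among the 15 with the largest lower differences were scarce. Il15 had 0 counts in untreated WT and 0.297 and 0.349 CPM in treated WT, at least 4.75-fold higher, and 1.54 and 1.89 CPM with TNF and 2.15 and 2.49 CPM untreated in p65 KO. Nod2, a sensor of bacterial peptidoglycan, and Ankrd33b had 1 count each in untreated WT cells. Their gains in CPM overlapped between the lines although their log2 differences, -4.93 and -4.58, were called. Clec2d, a lectin-like ligand, differed by -3.33 ± 0.37, with 1.23 and 1.16 CPM in untreated p65 KO and 0.456 and 0.451 CPM in untreated WT cells. All 15 genes were higher in untreated p65 KO than in untreated WT cells, by a called difference. This held for 275 of the 589 lower genes and 6492 of all 16322 genes. The untreated libraries also enter the ranked difference, so a low untreated WT level favours both a large lower difference and this order. The 15th had a difference of -3.33 and the 16th, outside the group, one of -3.18.

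**Figure D3:**
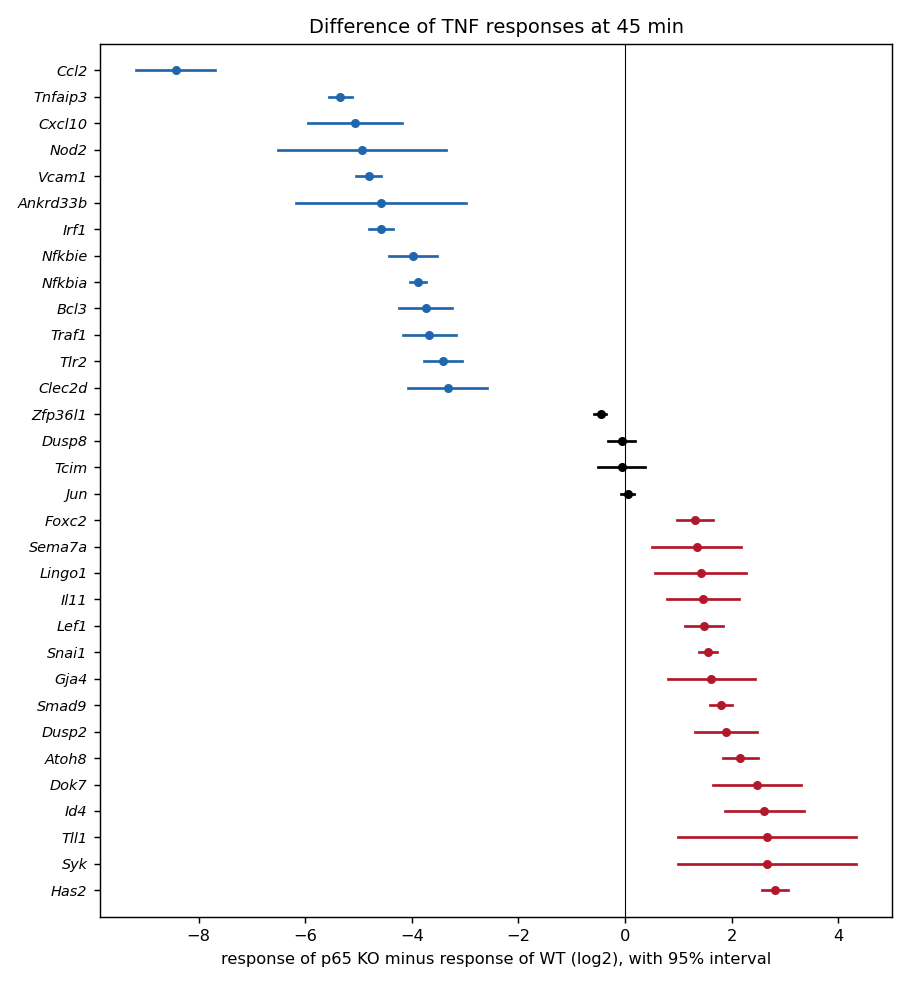
Difference of TNF responses (p65 KO minus WT, log2) with its 95% interval for 32 genes: in blue the genes with the largest lower differences that had counts in all 4 groups, in black those whose response was retained by rule, in red those with the largest higher differences. Intervals are narrow for Tnfaip3, Nfkbia and Has2 and wide for Nod2, Ankrd33b, Syk and Tll1.

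Immediate-early transcription factors did not move as a block. Of 29 tested, 10 were lower, 4 higher and 15 not called, with a median of -0.11. Egr1, a zinc-finger factor, was at 41.4 and 43.9 CPM with TNF and 33.9 and 33.4 CPM untreated in p65 KO, against 689 and 677 CPM with TNF and 131 and 136 CPM untreated in WT. It rose in both lines, by 0.35 in p65 KO and 2.36 in WT, a difference of -2.01 ± 0.06 (adjusted p = 5.0e-29). Junb, an AP-1 subunit, rose by 0.75 in p65 KO and 1.37 in WT (difference -0.61 ± 0.05), and Ier2 by 0.34 and 1.01 (difference -0.67 ± 0.07). Atf3, a stress-response factor, had a higher gain in p65 KO (3.47 CPM, against 1.29 CPM in WT) although its log2 difference was -1.28 ± 0.36. The Atf3 call was lost without library a or b of untreated WT, library a or b of treated WT or library b of untreated p65 KO, and with DESeq2 (adjusted p up to 0.30).

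Jun, the AP-1 subunit acted on by JNK, had nearly equal fold responses in both lines. It was at 92.3 and 88.8 CPM with TNF and 40.0 and 38.6 CPM untreated in p65 KO, against 332 and 336 CPM with TNF and 150 and 150 CPM untreated in WT. The rise was 2.30-fold in p65 KO and 2.23-fold in WT, and the difference was 0.05 ± 0.06 with a 95% interval of -0.07 to 0.16. In CPM the gain was smaller in p65 KO, 51.3 against 184 in WT. Dusp8, a phosphatase of JNK and p38, rose to 16.1 and 15.9 CPM in p65 KO, against 7.40 and 7.56 CPM untreated, and to 28.6 and 32.0 CPM in WT, against 12.6 and 14.2 CPM untreated (difference -0.06, 95% interval -0.32 to 0.19).

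Of the 180 genes raised in WT, 4 met the rule for a retained response, an interval of the difference within 0.58 of 0 on the log2 scale: Jun, Dusp8, Zfp36l1 and Tcim. Zfp36l1, an mRNA-decay factor, lay within that bound but was called lower at -0.46 ± 0.06. On the linear scale its gain was higher in p65 KO, at 46.8 CPM against 27.3 CPM in WT. The p65 KO response of Tcim, 0.65, was not called (adjusted p = 0.076). Among mRNA-decay factors 5 of 17 were lower and 3 higher. Zfp36, which encodes tristetraprolin, had 11.5 and 9.87 CPM with TNF and 7.72 and 8.10 CPM untreated in p65 KO, against 88.3 and 89.9 CPM with TNF and 12.9 and 15.9 CPM untreated in WT (difference -2.19 ± 0.13). Zc3h12a, which encodes the ribonuclease regnase 1, differed by -1.59 ± 0.19.

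Genes that TNF lowered in WT, among them regulators of differentiation and matrix, carried the higher differences. Of 25 genes of BMP signalling, the pathway of bone morphogenetic proteins with its SMAD mediators and ID target genes, 14 were higher, 0 lower and 11 not called, with a median of 0.52. Smad9, a receptor-activated SMAD, was at 27.1 and 28.3 CPM with TNF and 28.4 and 28.3 CPM untreated in p65 KO, against 7.63 and 8.56 CPM with TNF and 29.4 and 27.9 CPM untreated in WT. Its untreated levels differed by -0.01 (p65 KO minus WT, log2, adjusted p = 0.86), and the difference of responses was 1.80 ± 0.10 (adjusted p = 8.2e-18). Atoh8, a transcription factor, fell to 4.31 and 4.25 CPM in treated WT, against 18.2 and 20.3 CPM untreated, and was at 9.46 and 13.0 CPM with TNF and 11.8 and 11.2 CPM untreated in p65 KO (difference 2.16 ± 0.16).

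All 4 ID genes, which encode inhibitors of basic helix-loop-helix factors, had called higher differences. Id2 was at 76.1 and 77.6 CPM with TNF and 78.2 and 77.6 CPM untreated in p65 KO, against 36.0 and 36.3 CPM with TNF and 79.6 and 79.7 CPM untreated in WT (difference 1.12 ± 0.07). Id1 differed by 0.88 and Id3 by 0.83, with untreated lines apart by -0.71 and -0.90. Id4 was at 48.0 and 46.9 CPM with TNF in p65 KO and 0.248 and 0.291 CPM in WT, with 47.9 and 48.6 CPM untreated in p65 KO and 1.62 and 1.76 CPM in WT. Its log2 difference was 2.61 ± 0.37, while its changes in CPM overlapped between the lines. The inhibitory SMAD genes Smad6 and Smad7 differed by 1.17 ± 0.12 and 0.94 ± 0.05, and Smad7 rose in p65 KO by 0.19 while it fell in WT by 0.76. Both were lower in untreated p65 KO cells, by -2.24 for Smad6 and -1.93 for Smad7.

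Has2 (hyaluronan synthase 2), an enzyme that makes a matrix polysaccharide, had the largest higher difference. It was at 93.5 and 94.7 CPM with TNF and 81.5 and 82.0 CPM untreated in p65 KO, against 3.62 and 2.97 CPM with TNF and 20.0 and 20.4 CPM untreated in WT. It rose in p65 KO by 0.20 (adjusted p = 0.001) and fell in WT by 2.60, a difference of 2.81 ± 0.12 (adjusted p = 2.0e-22). Of 21 Wnt, Notch and matrix-signal genes, 7 were higher and 1 lower (Tgfb1, -0.46), with a median of 0.40. Ccn2, a matrix-associated growth regulator, was at 61.0 and 58.1 CPM with TNF in p65 KO and 587 and 595 CPM in WT, with 59.6 and 59.1 CPM untreated in p65 KO and 1149 and 1176 CPM in WT (difference 0.98 ± 0.05).

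Mesenchymal and developmental transcription factors gave 10 higher and 2 lower genes of 24, with a median of 0.22. Snai1, a repressor of epithelial genes, was at 20.3 and 18.9 CPM with TNF and 21.7 and 21.9 CPM untreated in p65 KO, against 35.6 and 36.4 CPM with TNF and 118 and 117 CPM untreated in WT (difference 1.55 ± 0.09, adjusted p = 2.7e-18). Lef1, a nuclear factor of Wnt signalling, differed by 1.48 ± 0.18, Foxc2 by 1.31 ± 0.17 and Sox9 by 1.21 ± 0.15. The untreated lines were apart by -1.14 for Lef1 and -0.48 for Sox9. Foxc2 stood much lower in p65 KO, at 3.84 and 3.42 CPM with TNF and 3.61 and 3.61 CPM untreated, against 33.6 and 30.7 CPM with TNF and 84.2 and 76.6 CPM untreated in WT.

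MAP kinase phosphatases and ERK inhibitors gave 8 higher and 2 lower genes of 19, with a median of 0.25. Dusp1, a phosphatase of p38 and JNK, rose in p65 KO alone by the test. It was at 32.6 and 35.0 CPM with TNF and 20.6 and 20.0 CPM untreated in p65 KO, against 36.2 and 35.2 CPM with TNF and 37.6 and 37.8 CPM untreated in WT. The responses were 0.74 in p65 KO and -0.08 in WT (adjusted p = 0.43 for WT), a difference of 0.82 ± 0.08 (adjusted p = 8.7e-11). Dusp5 and Dusp6, phosphatases of ERK, rose in p65 KO by 0.25 and 0.29 and fell in WT by 0.76 and 0.48. Their differences were 1.01 ± 0.05 and 0.77 ± 0.08, with untreated lines apart by -1.79 and -2.51. Dusp2 was at 1.69 and 1.25 CPM with TNF and 1.28 and 0.831 CPM untreated in p65 KO, against 6.98 and 6.70 CPM with TNF and 18.4 and 18.4 CPM untreated in WT, and differed by 1.89 ± 0.29.

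The rest of the 15 largest higher differences were of lower abundance in at least 1 group. Dok7, an adaptor protein, was at 2.59 and 2.38 CPM with TNF and 2.1 and 2.41 CPM untreated in p65 KO, against 0.693 and 0.116 CPM with TNF and 2.28 and 2.13 CPM untreated in WT. Its 2 treated WT libraries stood apart from each other. The Dok7 difference of 2.47 ± 0.41 (adjusted p = 2.0e-05) kept its call in all 14 refits, with a size of 4.30 without library a of treated WT cells and 1.79 without library b. Gja4, a gap-junction protein, differed by 1.62 ± 0.40. Syk, a tyrosine kinase, was at 0.398 and 0.201 CPM with TNF and 0.0457 and 0.0415 CPM untreated in p65 KO, against 31.4 and 27.7 CPM with TNF and 32.9 and 30.6 CPM untreated in WT. Its p65 KO ratio of 6.88 had a counting interval of 1.51 to 60.7. The calls of Syk, Tll1, Gja4, Lingo1 and Sema7a were each lost without at least 1 p65 KO library, with adjusted p up to 0.28, 0.36, 0.13, 0.23 and 0.33 in that order. Without library b of untreated p65 KO cells the Sema7a difference was 2.08, against 1.34 with it. The untreated lines were apart by -7.50 for Sema7a, -7.28 for Tll1 and -2.52 for Lingo1. Untreated Sema7a was at 0.365 and 0.831 CPM in p65 KO and 110 and 113 CPM in WT. The p65 KO ratio of Tll1, 3.04, had a counting interval of 0.767 to 17.6. The 15th gene had a difference of 1.31 and the 16th one of 1.29. In untreated cells 10 of the 15 were lower in p65 KO, 2 were higher and 3 were not called. Of the 567 higher genes 331 were lower and 184 higher in untreated p65 KO, and of all 16322 genes 6704 and 6492. The untreated libraries also enter the ranked difference.

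**Figure D4:**
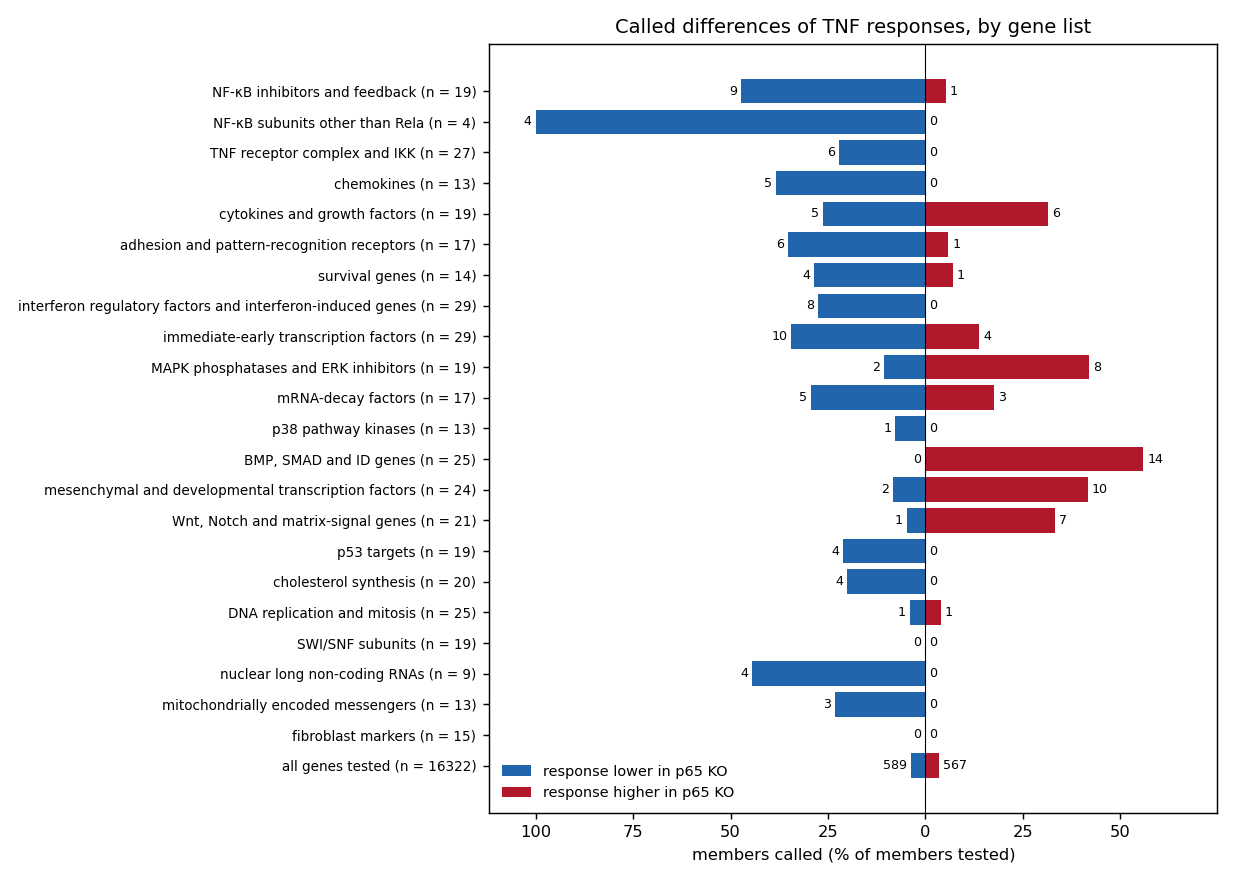
Bars show the share of tested members of each gene list whose TNF response at 45 min was called lower (left, blue) or higher (right, red) in p65 KO than in WT, with the number of genes at each bar and the number tested in the label. NF-κB subunits stand out on the left (4 of 4) and BMP, SMAD and ID genes on the right (14 of 25), against 589 and 567 of 16322 for all genes.

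Of p53 targets 4 of 19 were lower and 0 higher, Btg2 (-1.01), Bbc3 (-0.95), Sesn2 (-0.86) and Plk2 (-0.75), with a median of -0.16. Already in untreated cells, 18 of the 19 were called lower and 1 higher in p65 KO, with a median of -2.50. Over all 16322 genes 6704 were lower and 6492 higher. Of cholesterol synthesis genes 4 of 20 were lower and 0 higher, between -0.18 for Msmo1 and -0.33 for Lss. The call was lost in 4 of 14 refits for Msmo1 and in 7 for Insig1, a sterol sensor of the same list (adjusted p up to 0.064 and 0.3). DNA replication and mitosis had 1 lower and 1 higher of 25, p38 pathway kinases 1 lower of 13 (Mapkapk3, -0.51) and SWI/SNF chromatin remodelling subunits 0 of 19. The Mapkapk3 call was lost in 5 of 14 refits (adjusted p up to 0.2). Markers of muscle, neural and adipocyte cells had 1 called gene each, Tnnt2, Sox2 and Cebpa, of 5, 5 and 1 tested. Epithelial, endothelial and myeloid markers had 0 called of 2, 3 and 3 tested, too few to describe these lists. The call was lost in 8 of 14 refits for Cebpa and in 3 for Tnnt2 (adjusted p up to 0.22 and 0.26). The summed level of the muscle markers was 17.6 and 17.6 CPM with TNF and 17.7 and 19.6 CPM untreated in p65 KO, against 15.1 and 12.1 CPM with TNF and 21.3 and 21.7 CPM untreated in WT. The adipocyte sum ran from 0.457 to 0.946 CPM in p65 KO and from 4.75 to 6.64 CPM in WT. The summed level of the neural markers was 218 and 215 CPM with TNF and 222 and 212 CPM untreated in p65 KO, against 465 and 471 CPM with TNF and 547 and 545 CPM untreated in WT. The part of these cell types in the result was not tested.

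Nuclear long non-coding RNAs differed in another way. Of 9 tested, 4 were lower and 0 higher, and their median response was -0.41 in p65 KO and 0.05 in WT. Between the untreated lines 5 were called lower and 0 higher in p65 KO, with a median of -1.83. Neat1, a scaffold of nuclear paraspeckles, was at 70.6 and 73.4 CPM with TNF and 100 and 99.0 CPM untreated in p65 KO, against 419 and 410 CPM with TNF and 410 and 406 CPM untreated in WT (difference -0.49 ± 0.05, adjusted p = 2.9e-09). Kcnq1ot1 differed by -0.43, Xist by -0.45 and Malat1, a nuclear speckle RNA, by -0.41. Transcripts of the annotation classes sense-intronic and TEC (unconfirmed models) had median differences of -0.25 and -0.27 over 162 and 989 genes, against 0.00 over 12315 protein-coding genes. Of 13 mitochondrially encoded messengers 3 were lower and 0 higher, with a median of -0.12, and mt-Nd2, a subunit of respiratory complex I, had the largest of these at -0.20. These calls were lost in 1 of 14 refits for mt-Nd2, 3 for mt-Cytb and 8 for mt-Co1 (adjusted p up to 0.059, 0.22 and 0.36). In the same libraries mitochondrially encoded RNA made up 9.65% and 9.63% of counts in TNF-treated and 11.25% and 11.63% in untreated p65 KO cells, against 7.16% and 7.70% in TNF-treated and 6.86% and 6.63% in untreated WT cells. Protein-coding genes made up 84.99% and 85.13% of counts in TNF-treated and 82.94% and 82.95% in untreated p65 KO cells. In WT cells they made up 76.31% and 75.73% with TNF and 75.83% and 76.91% untreated. The part of these shares in the differences of responses was not tested.

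For the genes that differed most at 45 min, the difference was mostly smaller at 90 min. The difference at 45 min minus that at 90 min was called for 1325 of 16322 genes (8.12%). DESeq2 called 726. Both time points share the untreated libraries of their line, which cancel in that comparison. The genes below with the largest differences were ranked on the 45 min libraries, which also enter it. A smaller difference at 90 min is therefore favoured by the choice, and their counts are descriptions. Of the 15 genes with the largest lower differences, 11 were called here and all 11 were smaller at 90 min. Tnfaip3 differed by -5.34 at 45 min and -1.71 at 90 min, and Irf1 by -4.58 and -1.70. Tnfaip3 in treated cells at 90 min was at 20.7 and 20.1 CPM in p65 KO and 50.2 and 46.8 CPM in WT, and WT was thus far below its level at 45 min. Vcam1 and Ccl2 kept more of the gap, at -4.36 and -7.15.

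Other genes moved across 0 or grew. Has2 differed by 2.81 at 45 min and -0.67 at 90 min (45 minus 90 min 3.48 ± 0.11, adjusted p = 2.6e-27). Egr1 differed by -2.01 at 45 min and 0.25 at 90 min, and Plk2, a polo-like kinase, by -0.75 and 0.82. For Jun the difference was 0.05 at 45 min, and 45 minus 90 min was -0.95 ± 0.05 (adjusted p = 1.2e-18), with 96.6 and 89.8 CPM at 90 min in p65 KO and 178 and 177 CPM in WT. For Dusp8 it was -0.06 at 45 min and 0.94 at 90 min. Of the 15 genes with the largest higher differences, 13 were called between the times, and all 13 were smaller at 90 min in size or had turned. These genes too were ranked on the 45 min libraries.

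**Figure D5:**
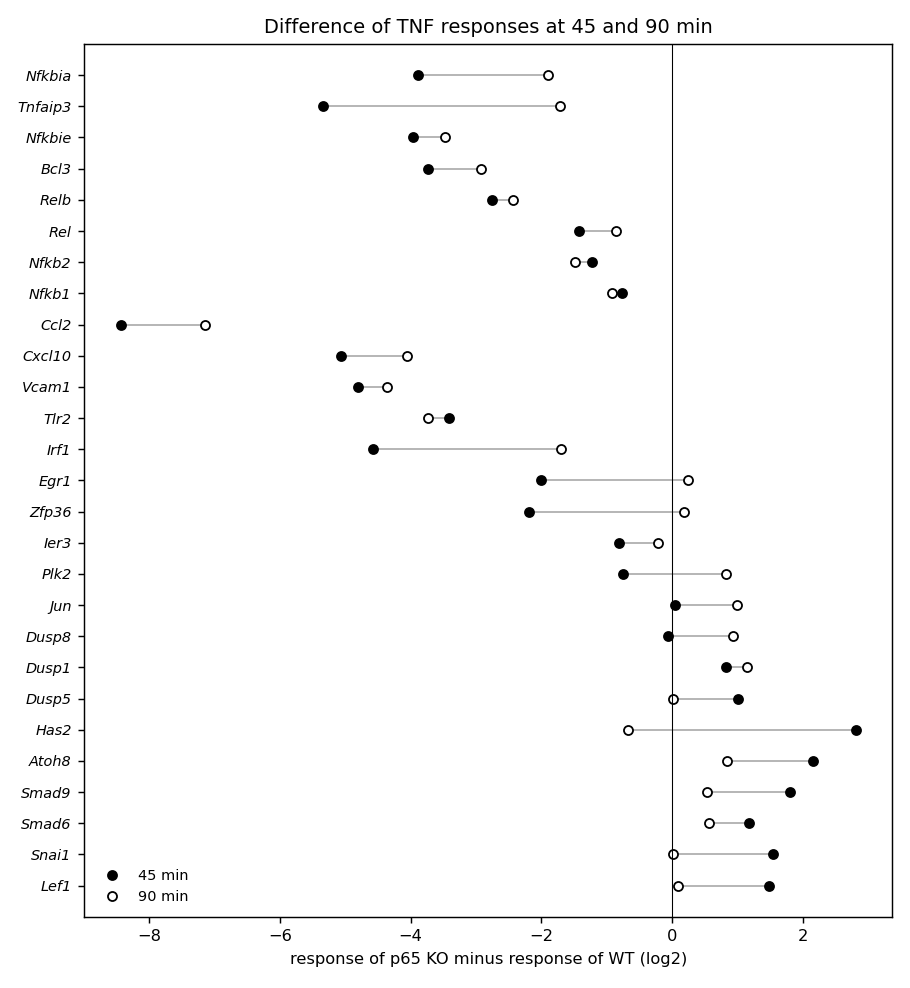
Difference of TNF responses (p65 KO minus WT, log2) for 27 genes at 45 min (filled) and 90 min (open). The points for Tnfaip3 and Irf1 lie far apart and those for Relb and Vcam1 close together, while Has2, Egr1, Zfp36 and Plk2 fall on opposite sides of 0 at the 2 times.

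The p65 KO line was also compared with the IKK2 KO line at 45 min, each against its own untreated cells. The responses differed for 965 of 16322 genes (5.91%), against 516 with DESeq2 and 615 without library b of untreated p65 KO cells. The p65 KO libraries are the same as those behind the difference from WT. Egr1 responded by 0.35 in p65 KO and 2.97 ± 0.04 in IKK2 KO (difference -2.62 ± 0.06, adjusted p = 4.9e-31). Its IKK2 KO levels were 333 and 321 CPM with TNF and 41.8 and 41.4 CPM untreated. Atoh8 had a larger difference in the other direction, 3.51 ± 0.39 (adjusted p = 7.0e-09). It fell by 3.52 in IKK2 KO, to 0.355 and 0.215 CPM with TNF, against 3.31 and 3.28 CPM untreated. Btg2, an antiproliferative factor, and Zfp36 differed by -1.84 ± 0.21 and -1.91 ± 0.14. Nfkbia and Tnfaip3 kept more of their response in IKK2 KO, at 2.17 and 2.10, and p65 KO minus IKK2 KO was -1.45 for each. Vcam1 was at 133 and 141 CPM with TNF and 126 and 125 CPM untreated in IKK2 KO, a response of 0.13 ± 0.04. Its difference between the p65 KO and IKK2 KO lines was 0.04 ± 0.08 (adjusted p = 0.90), and Nfkb1 and Nfkb2 differed by 0.05 ± 0.05 and 0.08 ± 0.05. A p above the threshold does not show that the lines responded alike.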

How the data were processed

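RNA was sequenced from 18 libraries of immortalised mouse embryonic fibroblasts, 2 per group in 9 groups; 8 libraries enter the difference of TNF responses. Per the labels' protocols, RNA was extracted with Trizol and libraries were made with a directional NEBNext Ultra II kit and read in pairs on a NextSeq. Per the submitters' processing notes, FastQC 0.11.8, Trimmomatic, HISAT2, featureCounts (Subread 1.6.2) and edgeR 3.26.4 were used; their settings, among them strand and the treatment of reads with several matches, are not given here. The authors deposited 1 table of gene-level estimated counts, not normalised, for all libraries, with 31.8% of the non-zero values fractional. They were rounded to whole numbers. Without the strand setting, overlapping and antisense genes remain uncertain. All 55536 gene identifiers matched GENCODE M21 (GRCm38), from which coordinates were taken. The columns carry group names and library codes that match no label, so libraries were called a and b within a group. The libraries of a group differed by 1.11 to 1.97 chi-square units per degree of freedom in the 4 groups, above counting noise. In the groups used for comparison this value was 2.71 in p65 KO and 1.16 in WT at 90 min. It was 3.95 in untreated IKK2 KO cells and 2.5 in IKK2 KO cells given TNF for 45 min.

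Counts were filtered with filterByExpr, which left 16322 genes and dropped 0.0601% of counts, scaled by TMM and fitted with edgeR 4.0.16 (R 4.3.3), with the quasi-likelihood F-test, robust settings and 1 coefficient per group over all 18 libraries, so that all groups shared 1 estimate of the spread (biological coefficient of variation 1.93%). The difference of responses, its difference between 45 and 90 min, between p65 KO and IKK2 KO, and the untreated contrast were adjusted by Benjamini-Hochberg over all genes, with calls at an adjusted p under 0.05. Every adjusted p in the text comes from this fit or the alternative named beside it. Values after ± are standard errors. DESeq2 1.42.0, RLE scaling, other filters, protein-coding genes alone, the libraries of the contrast alone and leaving out each library were the alternatives. The fit of the difference of responses was also run on counts simulated with the same spread for every gene. Differences were planted only in more abundant genes, so that run does not cover genes with few counts.

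Named genes were the 15 largest called differences in each direction at 2 CPM or more in some group with a plain symbol and no overlap of library-by-library responses (log2 CPM, prior count 0.5), genes with a retained response (called WT rise of at least 1.5-fold, 95% interval of the difference within 0.58 of 0), and up to 4 called members of each list, those with the largest differences (where 0 were called, up to 2 abundant ones). Id1, Id2, Id3, Smad7, Ptgs2, Csf1, Lif, Junb, Tnip1, Nfkbiz, Icam1, Tnfrsf1a, Rnf11, Bcl2l1, Vegfa, Areg, Fgf2, Hbegf, Inhba and Tgfb1 fall at least in part outside that rule and were chosen after their values were seen. The values of 1 gene that the rule names are not reported here. The members and lists were chosen with earlier results of these data known. Counting intervals are exact at 95% and cover counting error only. Promoter windows are from RefSeq, matched by symbol for 10159 of 16317 tested symbols.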

Additional observations from a re-analysis of the deposited data

Results flagged for a closer look

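The difference of TNF responses between p65 KO and WT cells was itself a tested difference between 2 lines, and it was called for 1156 genes at 45 min (edgeR, adjusted p under 0.05).

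Some named genes had called responses in opposite directions in the lines. Has2 rose in p65 KO and fell in WT, with a difference of 2.81. Dusp5 and Dusp6 did likewise, with differences of 1.01 and 0.77. Mki67, a proliferation marker, and Malat1 fell in p65 KO and rose in WT, with differences of -0.27 and -0.41.

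Other named genes had a called difference at 45 min and a called difference of the opposite sign at 90 min, and the 2 differences were also tested against each other. Has2 was at -0.67 at 90 min, Edn1, a vessel-constricting peptide, at 1.17, and Egr1 at 0.25. Btg2 was at 0.62, Ier2 at 0.24 and Plk2 at 0.82. The nuclear RNAs Neat1, Xist and Kcnq1ot1 were at 0.48, 0.18 and 0.34 at 90 min, after -0.49, -0.45 and -0.43 at 45 min. With 2 libraries per group, no single library could be tested as an outlier.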

How the results depend on the processing

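No paired analysis was possible because the table's columns carry library codes that match no label, so the replicate numbers of the labels could not be placed on columns. DESeq2 called 667 genes at 45 min (346 higher and 321 lower in p65 KO), of which 661 were among the 1156 called by edgeR; it called 726 genes for 45 minus 90 min and 516 for p65 KO minus IKK2 KO. RLE scaling, the other filters and the libraries of the contrast alone gave 1160 to 1285 genes, and 48.7% to 55.3% of their calls were higher, against 49.0% in the reported fit. Leaving out 1 library at a time gave 853 to 999 genes (410 to 523 higher, 414 to 504 lower), 927 to 1219 for 45 minus 90 min, 615 to 881 for p65 KO minus IKK2 KO and 12595 to 12731 for untreated p65 KO minus WT. Of the 30 genes with the largest differences, 23 kept their call in all 14 refits. The 7 that lost it in at least 1 refit were Il15 (no adjusted p from DESeq2), Syk, Tll1, Gja4, Il11, Lingo1 and Sema7a. Over all 82 called named genes 61 kept their call, and 0 changed sign in a refit. On the linear scale, an alternative added after the data were seen, the difference of gains in CPM (p65 KO minus WT) was positive for Zfp36l1 (19.5), Cxcl1 (12.5) and Atf3 (2.18), against negative log2 differences; their untreated levels in p65 KO were above WT. With 16708346 to 23469439 counts per library, genes with a few counts in untreated WT cells have wide intervals of the WT ratio.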
